A study of Homo sapiens with 6 samples.

Results

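PROX1 is a homeobox transcription factor gene (ENSG00000117707), measured here in 6 libraries of astrocytes made from H1, an established human embryonic stem cell line. It is 1 gene of 27439 with reads and of 15984 with enough reads to be tested. It was chosen by its read counts, for its rise in ventral midbrain libraries, so its own change between the groups is given as a description with no test, and its level is set among 229 other homeobox genes found in the files. The labels name 2 regional characters, control (forebrain) and ventral midbrain, each with 3 libraries numbered 2, 3 and 4, and give no further treatment, time point or genotype. In the labels the source is given as astrocyte and the cell type as the stem cell, and every library comes from the H1 line. Separate cultures are not stated, so a p-value here covers the spread between these 6 samples, and that spread may be technical. RNA was read with a 3' end kit for polyadenylated RNA, in which the reads of a transcript come from its end and do not grow in number with its length.

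PROX1 is the human counterpart of prospero, a Drosophila factor that takes neural progenitors out of the cell cycle. In the vertebrate nervous system it is known for promoting cell cycle exit and neuronal commitment in opposition to Notch signalling, for the identity of dentate granule neurons, and for its presence in interneurons of the caudal ganglionic eminence and in oligodendrocyte precursors. Outside the brain it is the factor that sets lymphatic endothelial identity, where SOX18 and NR2F2 act upstream of it, and it also acts in liver, lens and muscle.

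PROX2 is the only other human gene of the prospero class, and reads of near-identical genes can be divided wrongly between them. The coding stretch in which the 2 genes match at the most bases, without a gap, is therefore shown first. It was picked for that match and not by the limits of a protein domain. Both stretches are 180 bases long, come from the GENCODE transcripts (GRCh38) and are written 5' to 3' on the strand of the gene. Capitals mark the bases that are the same in both genes. The PROX1 stretch is coding bases 1749 to 1928 of transcript PROX1-201, which lie at chr1:214005188-214011615 on the plus strand and span an intron. The PROX2 stretch is coding bases 1329 to 1508 of PROX2-202, at chr14:74856901-74858491 on the minus strand, also across an intron.
PROX1: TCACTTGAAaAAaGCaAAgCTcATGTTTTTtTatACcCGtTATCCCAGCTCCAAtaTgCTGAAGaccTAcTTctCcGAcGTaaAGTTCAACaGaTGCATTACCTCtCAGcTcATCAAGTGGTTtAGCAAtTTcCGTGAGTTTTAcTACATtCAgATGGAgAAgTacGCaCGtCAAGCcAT
PROX2: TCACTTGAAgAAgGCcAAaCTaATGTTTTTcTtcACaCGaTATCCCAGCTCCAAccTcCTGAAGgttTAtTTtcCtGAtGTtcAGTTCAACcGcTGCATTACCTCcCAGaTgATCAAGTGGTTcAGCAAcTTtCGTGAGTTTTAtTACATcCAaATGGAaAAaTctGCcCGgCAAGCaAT
The 2 stretches agree at 139 of 180 bases (77.2%), and the longest run without a difference is 14 bases. Over the 433 coding bases that align, 314 are identical (72.5%). No stretch of 31 bases is shared between the PROX1 transcripts and PROX2, and no library held a read of PROX2 (0 of 80918234 estimated reads, which allows up to 0.0371 CPM, counting error only, CPM being counts scaled to one common library depth). The reads assigned to PROX1 were therefore not shared with its paralog. Of the 31-base stretches of PROX1-201, 18 (0.221%) also occur on the same strand in transcripts of other genes, and of those of PROX1-202, 28 (0.341%) do.

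PROX1 was low in control libraries and about 5 to 6 times higher in ventral midbrain libraries, with no overlap. The estimated reads per gene were 75, 66 and 85 in the control libraries numbered 2, 3 and 4. In the ventral midbrain libraries of the same numbers they were 446, 396 and 532. The 95% exact Poisson intervals, which cover counting error only, reached from 51.0 to 105.1 over the control libraries and from 358 to 579 over the ventral midbrain libraries. Scaled to CPM with TMM library sizes, these were 5.49, 5.65 and 6.43 in control libraries and 28.99, 31.05 and 38.1 in ventral midbrain libraries. The means were 5.85 ± 0.504 CPM (SD, n = 3) and 32.7 ± 4.78 CPM (SD, n = 3), a ratio of 5.59. Replicate 4 was the highest of both groups, and the lowest ventral midbrain library still stood 4.51 times above the highest control library. Between libraries of the same number the ratio was 5.28, 5.50 and 5.93. The fit over all genes gave a log2 fold change of 2.48 ± 0.21 (SE), and it lay between 2.36 and 2.55 under 15 other settings, leaving out each library in turn among them.

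**Figure D1:**
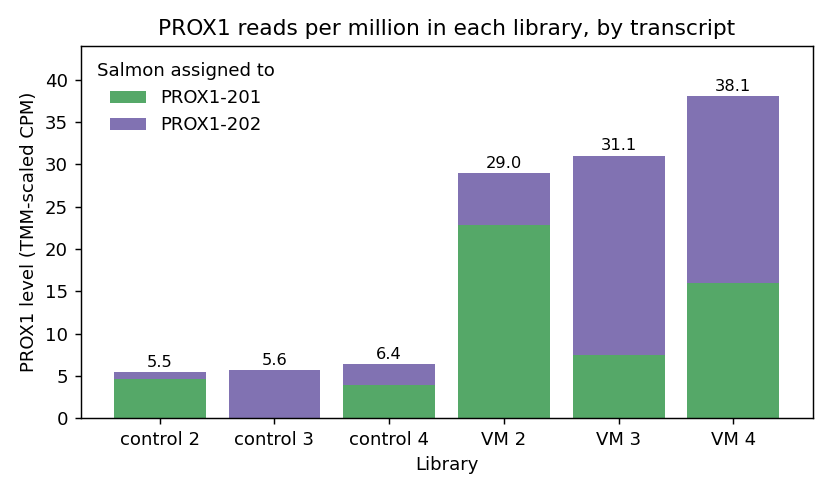
PROX1 level in each library in TMM-scaled CPM; bars are stacked by the transcript to which Salmon assigned the reads, PROX1-201 or PROX1-202. All 3 ventral midbrain (VM) libraries, at 28.99 to 38.1, stand above the 3 control libraries, at 5.49 to 6.43, while the split between the transcripts varies within each group.

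Other scales gave the same picture. In TPM (transcript abundance scaled per length and depth), PROX1 was at 0.272, 0.301 and 0.270 in control and at 1.63, 1.54 and 2.12 in ventral midbrain libraries. Its mean TPM was 0.281 ± 0.0173 (SD, n = 3) and 1.76 ± 0.312 (SD, n = 3), a ratio of 6.27. In the authors' normalized gene signal it was at 78.6, 71.8 and 83.1 against 414.5, 415.7 and 489.8, a ratio of the means of 5.66. Among all tested genes of a library, ordered by CPM, PROX1 stood at percentiles 30.8 to 33.4 in control libraries and 66.6 to 72.9 in ventral midbrain libraries. In bulk RNA, more cells that express PROX1 and more PROX1 RNA per cell cannot be told apart.

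PROX1 lies on chromosome 1 at 213983181 to 214041502 (GRCh38, plus strand). The files list 7 of its transcripts, and reads were assigned to 2 of them. PROX1-201 received 64.1, 0 and 52.7 estimated reads in the control libraries and 352, 95.1 and 224 in the ventral midbrain libraries. PROX1-202 received 10.9, 65.8 and 32.6 in control libraries and 94.2, 301 and 308 in ventral midbrain libraries. The share of PROX1-201 thus ran from 0% to 85.4% in control and from 24.01% to 78.9% in ventral midbrain libraries, with the lowest share in replicate 3 of both groups. In the GENCODE models both transcripts have 5 exons and the same coding length of 2214 bases with the stop codon, and start from different first exons, 213988501 to 213988721 in PROX1-201 and 213987943 to 213988483 in PROX1-202. Their last exons begin at the same base, 214035649, and end at 214041502 and 214041252, and 94.2% of the 31-base stretches of PROX1-201 are also in PROX1-202. In these models PROX1-201 thus runs further at its 3' end than PROX1-202, but the version of PROX1-202 in the files is 8468 bases long and that in the reference used here 8240. Whether 3' end reads tell the 2 transcripts apart was not tested, so the split between them is uncertain, and the values per gene are their sum.

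PROX1-AS1 is a long noncoding RNA gene that starts beside PROX1 and runs the other way. It held too few reads to be tested. Its summed reads came to 0.366, 0.0856 and 0 CPM in control libraries and 0, 0.706 and 0.644 CPM in ventral midbrain libraries, which overlap. The authors' normalized signal for PROX1-AS1 was 17.5, 0.324 and 0 in control libraries and 4.09, 22.3 and 18.7 in ventral midbrain libraries, which overlap too. The reference lacks some PROX1-AS1 transcripts of the files, so the sum is incomplete. Of the 31-base stretches of PROX1-202, 135 (1.64%) occur on the opposite strand in PROX1-AS1, and none of PROX1-201 do. The labels do not say whether reads were counted by strand.

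The nearest protein-coding genes on chromosome 1 did not pass the test. Of 15984 genes tested with edgeR's quasi-likelihood test, 344 (2.15%) passed at a Benjamini-Hochberg adjusted p under 0.05, and 1919 (12%) had an unadjusted p under 0.05. Of 5 tested neighbours 0 passed, 1 had an unadjusted p under 0.05, DESeq2 called 1 and limma voom 0, where over all tested genes DESeq2 called 4.69% and limma voom 2.1%. The single one was SMYD2, a lysine methyltransferase gene at 214281102 to 214337131. SMYD2 was at 9.58, 11.81 and 12.03 CPM in control libraries and 18.6, 20.5 and 20.1 CPM in ventral midbrain libraries, with a log2 fold change of 0.82 ± 0.21 (SE) and an adjusted p of 0.0762. RPS6KC1, upstream of PROX1, was at 11.1 ± 2.62 CPM (SD, n = 3) and 11.1 ± 2.65 CPM (SD, n = 3). PTPN14, a phosphatase gene, was at 117 ± 15.6 and 133 ± 20.6 CPM (SD, n = 3 each). KCNK2, a potassium channel gene, was at 2.43 ± 1.37 and 5.38 ± 2.49 CPM (SD, n = 3 each). CENPF, a gene of dividing cells, was at 134, 522 and 83.7 CPM in control libraries and 212, 954 and 196 CPM in ventral midbrain libraries, with replicate 3 the highest of both groups. With the replicate number as a block, the test called 1300 of all tested genes (8.13%, with 3.63% higher and 4.5% lower) and 2 of the 5 neighbours, SMYD2 (adjusted p = 0.0172) and CENPF (adjusted p = 0.000451), both higher.

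Many homeobox genes encode factors that set position and cell type along the body and the neural tube. The list used here also holds genes of other kinds, such as the ceramide synthase genes CERS2 and CERS5. Of the 229 listed beside PROX1, 70 held no read and 81 were tested. In ventral midbrain libraries 6 of the 81 were higher and 7 lower by the test over all genes, together 16.05%, where 2.15% of all tested genes passed (1.06% higher and 1.09% lower). The groups did not overlap for 40 of the 81, against 17.9% of all tested genes. The median log2 fold change of the 81 was 0.07 and that of all tested genes 0.01, with 41 of the 81 above 0.

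The 6 that rose were EN1, EN2, NKX6-1, POU3F2, IRX1 and ZEB2. EN1 and EN2 are the engrailed genes of the midbrain and hindbrain. EN1 was at 4.83, 6.59 and 3.93 CPM in control libraries and 191, 196 and 219 CPM in ventral midbrain libraries (log2 fold change 5.31 ± 0.22 SE, adjusted p = 2.3e-06). EN2 was at 1.90, 2.57 and 1.59 CPM against 11.4, 40.5 and 35.1 CPM, so that ventral midbrain replicate 2 was the lowest of its group (log2 fold change 3.84 ± 0.49 SE, adjusted p = 0.00623). NKX6-1, a factor of the ventral neural tube, was at 0.366 to 0.605 CPM in control and at 2.79, 6.12 and 10.5 CPM in ventral midbrain libraries (adjusted p = 0.0114). IRX1, an Iroquois gene, was at 8.85, 5.13 and 7.71 CPM against 22.0, 18.5 and 24.1 CPM (adjusted p = 0.0118). ZEB2, a zinc finger homeobox repressor, was at 36.6, 32.7 and 28.7 CPM against 70.6, 83.3 and 69.7 CPM. In each of these 6 the groups did not overlap, which was likely for genes named because they passed the test. Of all tested genes 17.9% did not overlap.

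The 7 that fell were EMX2, LHX2, SIX3, PAX6, MEIS2, MSX2 and PRRX1. The first 4 are known for forebrain patterning. SIX3 was at 185, 178 and 205 CPM in control libraries and 12.5, 39.1 and 12.03 CPM in ventral midbrain libraries, and LHX2 at 164, 210 and 165 CPM against 20.5, 13.1 and 4.66 CPM. EMX2 was at 25.8, 36.6 and 45.1 CPM against 3.19, 4.08 and 2.79 CPM. PAX6 was at 36.0, 89.7 and 45.4 CPM against 15.5, 12.7 and 9.95 CPM, with control replicate 3 the highest. All 4 were thus lower in every ventral midbrain library than in any control library, which was likely for genes that passed the test. PROX1, chosen for its rise, was higher. The mean of MEIS2 went from 61.9 to 30.1 CPM, that of MSX2 from 19.6 to 2.74 CPM and that of PRRX1 from 8.50 to 1.25 CPM.

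Of these 13 calls, 7 were lost when 1 library was left out, each library being left out on its own. That of EN2 was lost without control replicate 2 or 4 (adjusted p up to 0.0624), that of NKX6-1 without control or ventral midbrain replicate 4 (up to 0.0657), and that of IRX1 without control replicate 4 or ventral midbrain replicate 2 or 4 (up to 0.0579). That of LHX2 was lost without each control library or ventral midbrain replicate 3 (up to 0.114), and that of SIX3 without each library but ventral midbrain replicate 3 (up to 0.159). That of PAX6 was lost without control replicate 4 or each ventral midbrain library (up to 0.0956), and that of MEIS2 without control replicate 3 or 4 or ventral midbrain replicate 2 or 4 (up to 0.0892). With the replicate number as a block, 24 of the 81 passed, 12 in each direction, while LHX2 (adjusted p = 0.067) and SIX3 (adjusted p = 0.105) did not. Over all tested genes 8.13% passed with the block, 3.63% higher and 4.5% lower.

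Among the 82 tested homeobox genes, PROX1 included, its log2 fold change ranked 6. The 5 above it were EN1, POU4F1 (4.20 ± 1.11 SE), EN2, NKX6-1 and LMX1B (2.99 ± 0.86 SE). POU4F1 and LMX1B, factors of midbrain neurons and their precursors among other cells, rested on few reads. POU4F1 had 0, 4 and 0 reads in control and 29, 20 and 41 in ventral midbrain libraries (adjusted p = 0.0912). LMX1B had 1, 6 and 5 reads against 36, 12 and 62 (adjusted p = 0.127). Of the 6, EN1 and PROX1 had the most reads in the control libraries.

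**Figure D2:**
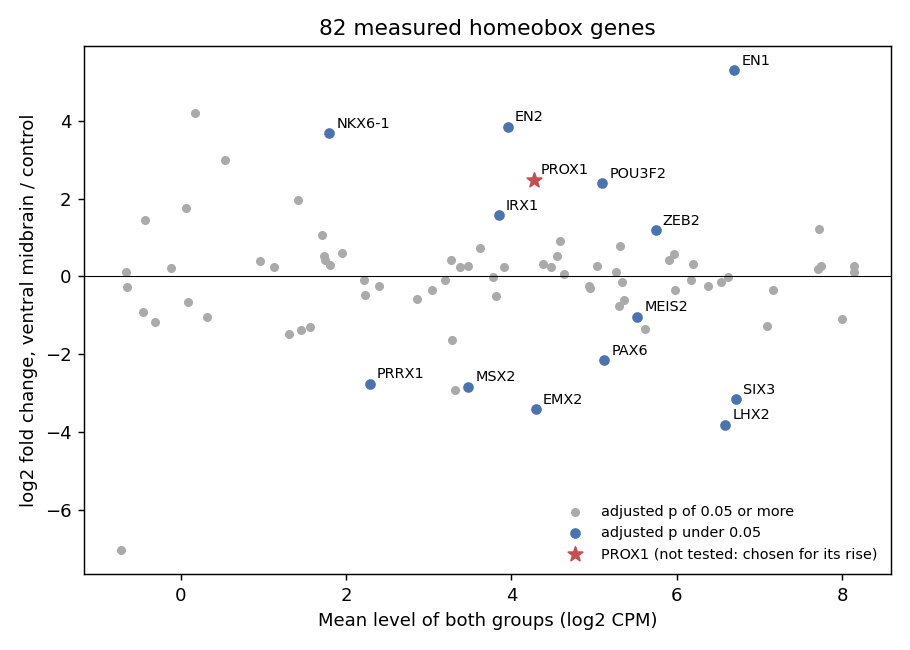
Log2 fold change (ventral midbrain over control) of 82 tested homeobox genes against their mean level in both groups in log2 CPM; blue points passed the test at an adjusted p under 0.05, grey points did not, and the star is PROX1, for which no test is given. PROX1, at 2.48, lies above all but 5 of the genes, and EN1, at 5.31, lies highest.

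Set among the 160 homeobox genes with reads by their mean TPM, a scale per length, PROX1 moved from rank 73 in control to rank 45 in ventral midbrain libraries. Its rank by TPM was 68, 73 and 76 in the control libraries and 46, 47 and 44 in the ventral midbrain libraries. In control it stood between DLX1 (0.291 ± 0.249 TPM) and UNCX (0.278 ± 0.253 TPM, SD, n = 3 each). The 3 genes above it, POU2F2, PRRX2 and DLX1, and the 3 below it, UNCX, LHX9 and PITX3, all overlapped it in their TPM. In ventral midbrain libraries it stood between SIX3 (2.26 ± 1.54 TPM) and LHX2 (1.57 ± 0.920 TPM, SD, n = 3 each). Of its 6 neighbours there, POU2F1, at 2.39 to 2.55 TPM, did not overlap PROX1, and ZHX2, SIX3, LHX2, PRRX2 and ZFHX2 did. The homeobox genes with the highest mean TPM were IRX3 (76.5), SIX5 (69.9) and TSHZ2 (30.8) in control and PAX8 (80.5), SIX5 (54.6) and IRX3 (42.7) in ventral midbrain libraries, so PROX1 stayed well below the top of the class in both groups. TPM divides by length, which lowers a long transcript such as those of PROX1 in a 3' end assay. By CPM, which has no length term, PROX1 was at rank 53 in control and rank 24 in ventral midbrain libraries.

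**Figure D3:**
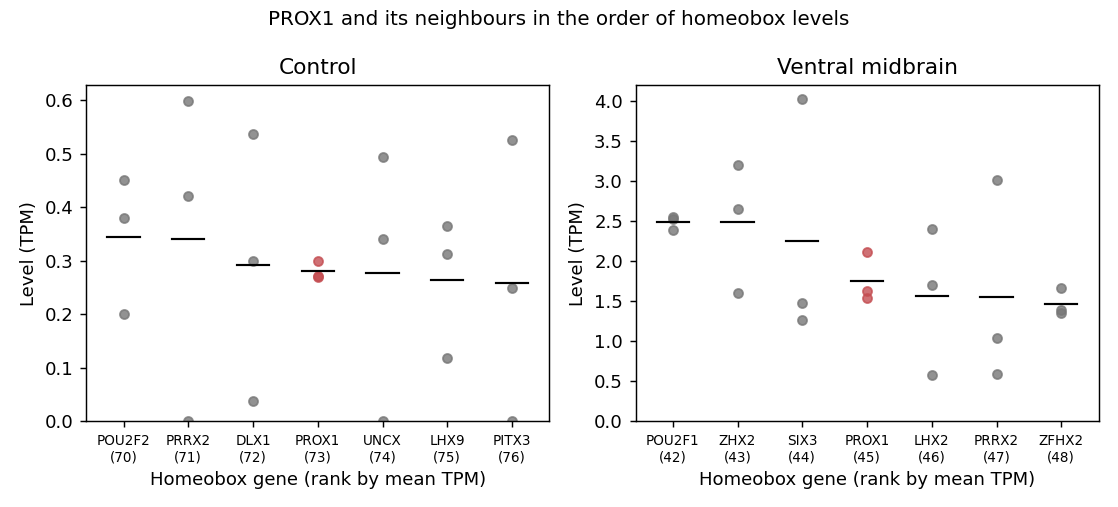
TPM of PROX1 (red) and of the 3 homeobox genes next above and next below it in mean TPM, in control libraries (left) and ventral midbrain libraries (right); points are libraries, lines are means, and the rank among 160 homeobox genes is in brackets. Only POU2F1, of the 12 neighbours drawn, does not overlap PROX1.

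The genes whose profile was most like that of PROX1 were found by the root mean square difference of log2 CPM, centred on each gene's mean over the 6 libraries, which share their group difference. They were chosen for that likeness, so the values are a description. POU3F2, also called BRN2, a POU homeobox factor of neural progenitors and neurons, was the closest, with a difference of 0.105, where the median over the genes compared was 1.25. POU3F2 was at 9.51, 11.98 and 11.42 CPM in control and at 53.9, 54.3 and 64.4 CPM in ventral midbrain libraries. It was higher than PROX1 in number of reads in each library, and its log2 fold change was 2.39 ± 0.18 (SE). The next were THBS2, a secreted thrombospondin (0.242), BMP2, a bone morphogenetic protein (0.257), the potassium channel gene KCNA5 (0.264), the amino acid transporter gene SLC7A2 (0.289), the potassium channel gene KCNJ6 (0.295), the phospholipase gene PLCG2 (0.311) and ID4, an inhibitor of basic helix-loop-helix factors (0.318). BMP2 was at 53.0, 36.2 and 37.0 CPM in control and at 233, 270 and 284 CPM in ventral midbrain libraries, with replicate 4 the highest of that group, as for PROX1. ID4 was at 117, 135 and 106 CPM against 524, 691 and 467 CPM, with replicate 3 the highest in both groups. Among homeobox genes alone, IRX1 (0.503) and NKX6-1 (0.579) followed POU3F2. With Pearson's correlation as the measure, 1 of the 8 genes, POU3F2, was again among the 8 closest.

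**Figure D4:**
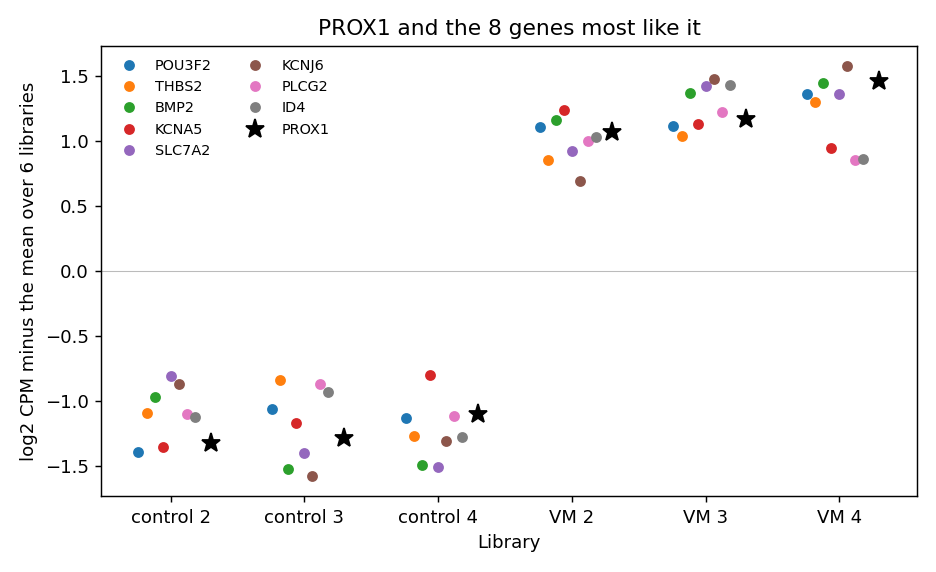
Log2 CPM minus the mean over 6 libraries, for PROX1 (star) and the 8 genes whose profile was most like it (points), by library. POU3F2, with a root mean square difference of 0.105, lies closest to PROX1, and all 9 genes lie below 0 in the 3 control libraries and above 0 in the 3 ventral midbrain (VM) libraries.

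Among factors and signals known to act upstream of PROX1 in one tissue or another, 16 of 19 listed were tested, and 2 rose and 2 fell (25.0%, against 2.15% of all tested genes). SOX18 and BMP2 rose. SOX18, which switches PROX1 on in embryonic veins, was at 2.12, 0.684 and 1.81 CPM in control and at 10.99, 17.7 and 10.1 CPM in ventral midbrain libraries (log2 fold change 3.05 ± 0.44 SE, adjusted p = 0.00588), and it passed with each library left out in turn. SOX17, a relative of SOX18, held no read. PAX6 and TGFB2 fell. TGFB2, a transforming growth factor, was at 1004 ± 256 CPM and 534 ± 70.3 CPM (SD, n = 3 each, adjusted p = 0.0477), and its call was lost without each library but control replicate 3 (adjusted p up to 0.169). The PAX6 call was lost without control replicate 4 or each ventral midbrain library (adjusted p up to 0.0956). CTNNB1, the beta-catenin gene, was at 470 ± 79.7 and 559 ± 34.5 CPM (SD, n = 3 each, adjusted p = 0.653). The median log2 fold change of the 16 was 0.20, and 10 were above 0.

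NR2F2, the nuclear receptor that acts with SOX18 on PROX1 and also binds the PROX1 protein, was at 116, 109 and 69.7 CPM in control and at 110, 125 and 70.4 CPM in ventral midbrain libraries, so the groups overlapped (log2 fold change 0.05 ± 0.25 SE). Its relative NR2F1 was at 717, 556 and 374 CPM against 292, 267 and 193 CPM, with an adjusted p of 0.0517, and it passed with the replicate number as a block (adjusted p = 4.6e-05). GATA2, which acts on PROX1 in lymphatic endothelium, was at 0 to 0.681 CPM in control and at 1.56, 3.999 and 1.72 CPM in ventral midbrain libraries, with an adjusted p of 0.184. These 3 genes were chosen after their values were seen.

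Of the 17 tested genes for proteins that bind PROX1 (nuclear receptors, deacetylases and other cofactors), 0 passed edgeR's test, 1 had an unadjusted p under 0.05, and DESeq2 and limma voom called 0. Among all tested genes 2.15% passed, 12% had an unadjusted p under 0.05, and DESeq2 and limma voom called 4.69% and 2.1%. HDAC2, a histone deacetylase, was the most abundant at 190 ± 22.0 and 214 ± 22.6 CPM (SD, n = 3 each). The median log2 fold change of the 17 was 0.13. Under the replicate block 1 passed (8.13% of all tested genes did), ETS2, a transcription factor, which was lower (adjusted p = 0.0191). HNF4A, a partner of PROX1 in liver, held no read.

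Of the lymphatic programme that PROX1 runs in endothelium, 18 of 24 listed genes were tested. By edgeR's test 0 rose, where 1.06% of all tested genes did, and 1 fell (5.56%, against 1.09% of all). An unadjusted p under 0.05 was found for 7 of the 18 (12% of all tested genes), DESeq2 called 5 (4.69% of all) and limma voom 1 (2.1% of all). The median log2 fold change was -0.40, and 6 were above 0. NRP2, a receptor for vascular growth factors and semaphorins, fell from 282, 304 and 205 CPM to 79.4, 68.8 and 45.0 CPM (log2 fold change -2.03 ± 0.24 SE, adjusted p = 0.00365). APLN, the apelin ligand, was at 165 ± 67.2 and 88.9 ± 12.6 CPM (SD, n = 3 each, adjusted p = 0.194), and passed with the replicate block (adjusted p = 0.00388). LYVE1 and CCL21, a receptor and a chemokine of lymphatic vessels, held no read in any library. With the replicate block 1 of the 18 was higher and 4 were lower (3.63% and 4.5% of all tested genes).

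**Figure D5:**
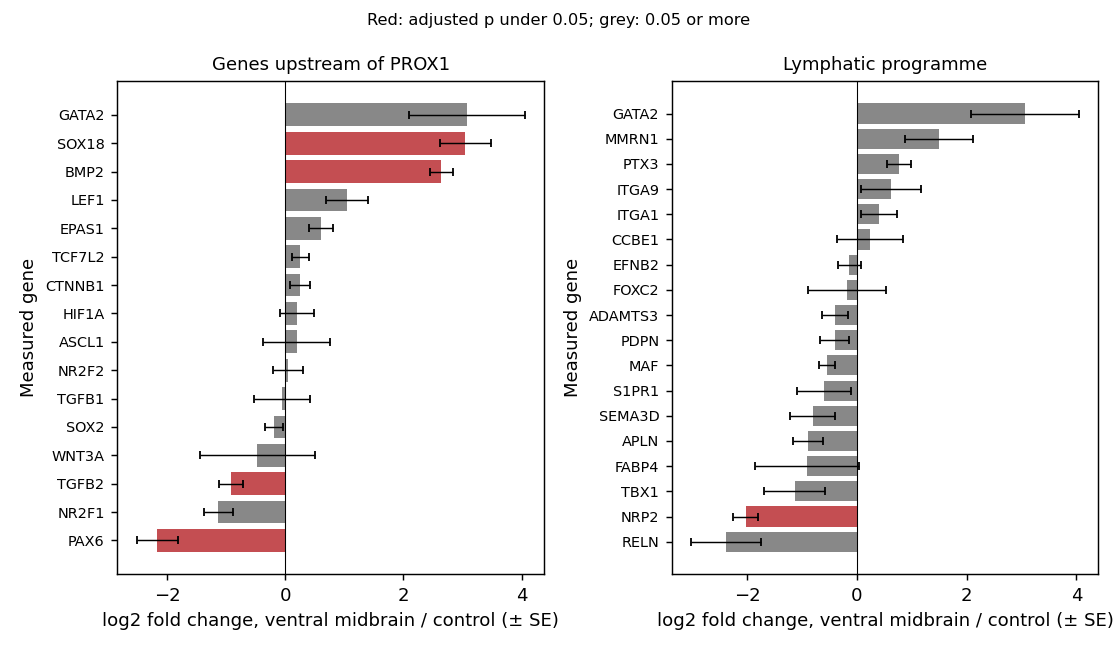
Log2 fold change (ventral midbrain over control, bars, ± SE) of the 16 tested genes upstream of PROX1 (left) and the 18 tested genes of the lymphatic programme (right); red bars passed the test at an adjusted p under 0.05 and grey bars did not. SOX18 and BMP2 are the red bars above 0, and TGFB2, PAX6 and NRP2 those below it.

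Of the Notch pathway, which PROX1 opposes in neural progenitors, 19 genes were tested, 1 rose and 0 fell (5.26%, against 2.15% of all tested genes), with a median log2 fold change of 0.10. HES6, a Hes relative that antagonises HES1, rose from 9.88, 10.3 and 7.87 CPM to 26.3, 29.01 and 17.3 CPM (adjusted p = 0.0189), which did not pass without control replicate 2 or 4 or ventral midbrain replicate 2 or 3 (adjusted p up to 0.0985). HES1, the main Notch target of progenitors, was at 444 ± 83.5 and 480 ± 65.4 CPM, and RBPJ, the DNA-binding partner of Notch, at 165 ± 4.86 and 165 ± 16.6 CPM (SD, n = 3 each). With the replicate block 1 of the 19 was higher and 3 were lower (3.63% and 4.5% of all tested genes). A single call among 19 is close to the share over all genes.

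A list of 20 cell cycle genes held genes of cell cycle exit and the G1 phase, and also TOP2A. Of the 20, 0 passed edgeR's test, 4 had an unadjusted p under 0.05, and DESeq2 and limma voom called 0. Over all tested genes these shares were 2.15%, 12%, 4.69% and 2.1%. TOP2A, a topoisomerase of dividing cells, was at 501, 1689 and 520 CPM in control libraries and 720, 2450 and 703 CPM in ventral midbrain libraries. Replicate 3 was thus far above the others in both groups. PROX1 in replicate 3 was in the middle of each group by CPM. By TPM it was the highest of the control and the lowest of the ventral midbrain libraries. A link between PROX1 and dividing cells was not tested. CDKN1C, a cell cycle inhibitor known as a PROX1 target, was at 240 ± 33.4 and 168 ± 21.9 CPM (SD, n = 3 each, adjusted p = 0.187). With the replicate block 2 genes were higher and 2 lower (3.63% and 4.5% of all tested genes), TOP2A (adjusted p = 0.00784) among the former and CDKN1C (adjusted p = 0.0109) among the latter.

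Of 12 genes of fibroblast growth factor receptors and their feedback, 0 rose and 1 fell (8.33%, against 2.15% of all tested genes), a single call. FGFR1, a receptor tyrosine kinase, fell from 822, 682 and 807 CPM to 446, 257 and 424 CPM (log2 fold change -1.03 ± 0.21 SE, adjusted p = 0.0345). That call was lost when any 1 of the 6 libraries was left out (adjusted p up to 0.156). SPRY2, a feedback inhibitor, was at 49.3 ± 18.2 and 70.4 ± 23.9 CPM (SD, n = 3 each, adjusted p = 0.633), and passed with the replicate block (adjusted p = 0.0187).

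The libraries held 11617935 to 15391082 estimated reads. Astrocyte markers were present, with GFAP, the astrocyte filament gene, at 267, 360 and 459 CPM in control libraries and 320, 175 and 618 CPM in ventral midbrain libraries, but HEPACAM held no read. Of 11 astrocyte markers tested, 4 rose (AQP4, MLC1, NFIA and SLC1A3) and 0 fell, where 1.06% of all tested genes were higher and 1.09% lower. The call of AQP4 was lost without each control library or ventral midbrain replicate 2 (adjusted p up to 0.209), that of NFIA without each library but ventral midbrain replicate 4 (up to 0.203), and that of SLC1A3 without control replicate 2 or 4 or ventral midbrain replicate 3 or 4 (up to 0.124). Limma voom did not call AQP4 (adjusted p = 0.073). With the replicate block 4 were higher and 2 lower, where 3.63% and 4.5% of all tested genes were. Among the lower was GJA1 (adjusted p = 0.00789), at 55.3 ± 17.6 CPM in control and 35.05 ± 15.2 CPM in ventral midbrain libraries (SD, n = 3 each). Of the markers of midbrain and hindbrain character, 2 of 6 tested rose (EN1 and EN2, where 1.06% of all tested genes rose, and with the replicate block PAX8, adjusted p = 0.000385), and PAX2, PAX5, FGF8 and FOXA2 held too few reads to be tested. Of the markers of forebrain character, 6 of 6 tested fell (1.09% of all tested genes), EMX2, FEZF2, LHX2, SIX3 and PAX6 among them. Under the block 4 of the 6 were lower (4.5% of all), and LHX2 (adjusted p = 0.067) and SIX3 (adjusted p = 0.105) did not pass. FEZF2, a forebrain zinc finger factor, was at 7.97, 12.8 and 16.2 CPM in control and at 0, 0.627 and 0.143 CPM in ventral midbrain libraries. PROX1 was chosen for its rise between these same groups, so a change alongside the regional markers follows from that choice.

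Markers of other cell types, some of them known to express PROX1, were summed as CPM beside it. Over all tested genes, edgeR called 2.15%, DESeq2 4.69% and limma voom 2.1%, and 12% had an unadjusted p under 0.05. The replicate block called 3.63% of all higher and 4.5% lower. For dentate granule neurons 3 of 6 markers were tested and all 3 fell (CALB1, DSP and PLXNA4, where 1.09% of all tested genes fell), and the sum was 315 to 378 in control libraries and 129 to 168.5 in ventral midbrain libraries. The call of DSP was lost without each library but control replicate 3 (adjusted p up to 0.184), and that of PLXNA4 without each but ventral midbrain replicate 3 (up to 0.0802). NEUROD1, a factor of these neurons, was at 0 to 0.195 CPM. For interneurons the sum was 5.56 to 18.3 against 0.910 to 2.43, with VIP at 0 reads and 0 of 2 tested passing edgeR's test (1 had an unadjusted p under 0.05, DESeq2 called 1 and limma voom 0), or 1 lower, CALB2, with the replicate block. For neurons of any kind it was 1267 to 2012 against 715 to 1188, with 0 of 9 passing edgeR's test (4 unadjusted, 4 by DESeq2 and 0 by limma voom), or 5 lower with the replicate block. For the oligodendrocyte lineage it was 159.5 to 199 against 132 to 142, with 1 of 5 higher (BCAS1), 1 lower (PDGFRA), and SOX10 and GPR17 at 0 reads. The BCAS1 call was lost without control replicate 3 or 4 or ventral midbrain replicate 2 or 3 (adjusted p up to 0.115) and was not made by limma voom (adjusted p = 0.0742), and the replicate block gave 2 higher and 2 lower.

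The same shares over all tested genes stand beside the next counts: 2.15% by edgeR, 12% unadjusted, 4.69% by DESeq2 and 2.1% by limma voom. With the replicate block they were 3.63% higher and 4.5% lower. For lymphatic endothelium the sum was 84.8 to 147.5 against 75.0 to 114, most of it PDPN, which astrocytes also express, with 0 of 5 passing edgeR's test (2 unadjusted, 1 by DESeq2 and 0 by limma voom), or 1 lower with the replicate block. For blood endothelium it was 16.8 to 20.9 against 8.65 to 13.9, with 0 of 5 passing (2 unadjusted, 0 by DESeq2 and 0 by limma voom). For hepatocytes it was 2.63 to 4.46 against 1.17 to 4.55, with TTR, HNF4A and CYP7A1 at 0 reads and 0 of 1 passing. For lens it was 5.41 to 7.10 against 3.37 to 5.01, with CRYAA, CRYBB1, BFSP2 and MIP at 0 reads and 0 of 2 passing, and neither of these lists had a gene with an unadjusted p under 0.05 or a call by DESeq2 or limma voom. The sums of these 4 lists and of the 4 neural ones were not higher in the ventral midbrain group. Which cells held the PROX1 RNA was not tested. For striated muscle the sum was 2.82 to 6.88 against 9.10 to 18.7, most of it DES in the ventral midbrain libraries, with MYH6 and MYOG at 0 reads and 0 of 2 passing edgeR's test (1 unadjusted, 1 by DESeq2 and 0 by limma voom), or DES (adjusted p = 0.00153) with the replicate block. The sum of the ependymal list was 7.56 to 20.8 against 63.2 to 94.7, most of it FOXJ1 in the ventral midbrain libraries. FOXJ1, the master gene of motile cilia, was at 16.1, 10.9 and 3.48 CPM against 82.4, 54.0 and 50.7 CPM. Of 4 ependymal markers tested 0 passed (2 had an unadjusted p under 0.05, DESeq2 called 2 and limma voom 1), and TTR held no read. With the replicate block 2 ependymal markers were higher, FOXJ1 (adjusted p = 0.00125) and DNAH9 (adjusted p = 0.0277). For pluripotent cells, the kind from which these astrocytes were made, the sum was 5.93 to 8.64 against 3.25 to 9.17, with TDGF1 at 0 reads and 0 of 1 passing. The muscle and ependymal sums were higher in the ventral midbrain group. A part of any of these cell types in the rise of PROX1 was not tested.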

How the data were processed

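RNA of the 6 libraries was prepared with a 3' end kit for polyadenylated RNA, per the labels' protocols. The submitters' processing notes name Salmon (no version), DESeq2 (version 1.27.12) and GRCh38.p13. The files deposited by the authors hold estimated counts, TPM and effective lengths per transcript, from Salmon. A further deposited table gives a normalized signal per gene. Here, estimated counts were summed per gene through GENCODE 29 (GRCh38), which matched 205225 of 226608 transcripts (90.6%), leaving 0.992% to 1.12% of a library's reads unmatched, and were rounded to whole numbers. TPM were summed per gene for the order of levels. The fit was edgeR 4.0.16 in R 4.3.3 (filterByExpr, TMM, quasi-likelihood with robust dispersion, Benjamini-Hochberg adjustment over all 15984 tested genes), which was also tested on simulated data. The SE of a log2 fold change was its size over the root of the F statistic. Likeness used log2 CPM with a prior count of 2 over protein-coding genes of average log2 CPM of at least 2.

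The members and lists were chosen with earlier results of these data known, the lists from textbook knowledge. Named are PROX1, PROX2 and PROX1-AS1. From the homeobox list, genes past the test, the 3 next above and below PROX1 and the 3 highest in mean TPM are named. From other lists, up to 6 genes past the test and up to 2 with the highest level are named, with all neighbours and regional markers that need a value, and the 8 genes and 3 homeobox genes most like PROX1. Other genes named were chosen after their values were seen. Some results that this rule would name are not reported here, though the counts include them. Deviations from the group means correlated at 0.234, 0.345 and 0.204 between same-numbered samples of the 2 groups and at no more than 0.0237 between others. No label says what same-numbered samples share. The main fit held the group alone and did not pair the samples, so its p-values are unpaired. A fit with the replicate number as a block is given beside it. The settings tried instead were scaling by RLE or upper quartile, filtering at 2 CPM in 3 libraries or not at all, the tools DESeq2 1.42.0 and limma voom 3.58.1, an offset for gene length, log2(value + 1) of the deposited signal, the replicate number as a block, and each library left out in turn. Sequences come from the GENCODE transcripts, and the promoter and protein of PROX1 are not shown. Figures were drawn with matplotlib 3.10.9.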

Additional observations from a re-analysis of the deposited data

How the results depend on the processing

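The log2 fold change of PROX1 kept its direction and moved by less than the spread between replicates under all 15 settings tried. The count of all genes past the test moved from 344 to 1012 with no low-count filter, 750 with DESeq2, 174 with a gene-length offset, 182 with the deposited signal and 1300 with the replicate block. It was 131 to 258 with 1 library left out: 131 without control replicate 4, 159 and 168 without ventral midbrain replicate 2 and 4, and 211 without control replicate 2. The count of homeobox genes past the test, 13, became 24 with no filter, 20 with DESeq2 and 24 with the replicate block, and 6 to 13 with 1 library left out, 6 without control replicate 4. The count over the lists on the regulation and action of PROX1 and its neighbours, 7 of 105 tested, became 15 with no filter, 13 with DESeq2, 3 with the length offset, 3 with the deposited signal and 23 with the replicate block, and 3 to 7 with 1 library left out, 7 only without control replicate 3. Beside the homeobox and list counts, the share of all tested genes was 2.15% in the main fit, 4.69% with DESeq2 and 8.13% with the replicate block. For the other settings only the counts over all genes are given, without a share, and with no filter more genes were tested. Their homeobox and list counts therefore cannot be set against a share. The rank of PROX1 in ventral midbrain libraries was 45 by TPM and 24 by CPM. Of the 8 genes most like PROX1, 1 was shared when Pearson's correlation was the measure. The cause of these shifts was not tested. Over the named genes, 1055 values under alternatives stayed on their side of the threshold, 102 lost the call, 47 gained it and no called value changed sign. The length offset and the deposited signal each ended the calls of IRX1, MEIS2, PAX6, HES6, FGFR1, TGFB2, DSP, NFIA, PLXNA4 and KCNJ6, among others, limma voom those of EN2, NKX6-1, AQP4, BCAS1 and KCNJ6, upper-quartile scaling those of DSP and TGFB2, and the absence of a filter those of LHX2 and SIX3. Depth limits PROX1 in control libraries, where it had 66 to 85 reads, more than in ventral midbrain libraries.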
